A study of Mus musculus with 10 samples.

Results

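The genes described here encode the enzymes and transporters of glycolysis, gluconeogenesis and glycogen metabolism, with the kinases that switch off pyruvate dehydrogenase. They were chosen by gene symbol as a list of 47, of which 42 were measured among 22180 genes in all. A gene counted as measured where a probe set of the array was annotated with its symbol alone, and the probe set with the highest mean was used. Gpi1, Pfkfb1, Aldoa, Eno1 and Pgm1 had no such probe set and have no values here. RNA came from sorted mouse lung cells at postnatal day 4, labelled as type 2 alveolar epithelial cells (AEC2s), with 5 Axin2+ and 5 SP-C+ samples and 1 Affymetrix array each. Titles, age labels and the design text give day 4, while a description shared by the samples speaks of P3 and adult cells, and day 4 was used here. Axin2+ cells came from Axin2CreERT2-TdTom mice, in which tamoxifen-dependent Cre driven by the Wnt target gene Axin2 marks cells with TdTomato. They were sorted as EpCAM-positive cells without the endothelial protein CD31 or the leukocyte protein CD45. SP-C+ cells came from SftpcCreERT2-R26REYFP mice, in which Cre driven by the surfactant protein C gene marks cells with YFP, and were sorted after 24 h of lineage tracing. Both lines were kept on mixed C57BL/6, 129S6 and CD-1 strains. The comparison sets AEC2s labelled by Axin2, as Wnt-responsive cells, against AEC2s labelled as a whole. Line, reporter and gate differ with the group and cannot be told apart from it, and the gate given for Axin2+ cells names no AEC2 protein. A lineage tracing time is given for SP-C+ cells only, so whether it differed between the groups is not known.

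Glycolysis splits glucose into pyruvate, and gluconeogenesis runs the path back to glucose with its own enzymes at the irreversible steps. The step between fructose 6-phosphate and fructose 1,6-bisphosphate is a main point of control: phosphofructokinase drives it forward, fructose bisphosphatase drives it back, and fructose 2,6-bisphosphate favours the first over the second. In the lung, AEC2 precursors store glycogen before birth and use it up as they begin to make surfactant, whose glycerol backbone can come from glucose.

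Fbp2 and Fbp1, the fructose bisphosphatases, were 4.42-fold and 3.56-fold lower in Axin2+ than in SP-C+ arrays, and Pcx, pyruvate carboxylase, was 2.14-fold lower. At the same point of control Pfkp, the platelet-type phosphofructokinase, was 2.12-fold higher and Pfkfb3, which makes fructose 2,6-bisphosphate, 1.84-fold higher. Pfkfb2, an isoform of Pfkfb3, was 1.30-fold lower. Of 42 members, 3 rose, 12 fell and 27 did not pass limma's test at a Benjamini-Hochberg adjusted p under 0.05 over all genes. Of all genes 17.6% passed, 8.61% higher and 8.95% lower. Most members are bright, and among the brighter 11090 genes 27.7% passed, 12.5% as higher and 15.2% as lower. The groups did not overlap in 16 members, 4 higher and 12 lower, against 15% of all genes (7.38% higher and 7.66% lower). The median difference (log2 level in Axin2+ less that in SP-C+) was -0.11 over the members and -0.04 over all genes. By pathway, glycolysis held 2 higher and 3 lower of 23 measured, gluconeogenesis 1 higher and 4 lower of 7, glycogen metabolism 0 higher and 3 lower of 8, and the pyruvate dehydrogenase kinases 0 higher and 2 lower of 4. With each array centred on its median gene, 2 members were higher and 17 lower, and the counts over all genes were 1561 higher and 4412 lower, against 1909 and 1985 without centring. Centring moved every difference down alike, and the median over all genes from -0.04 to -0.14.

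**Figure D1:**
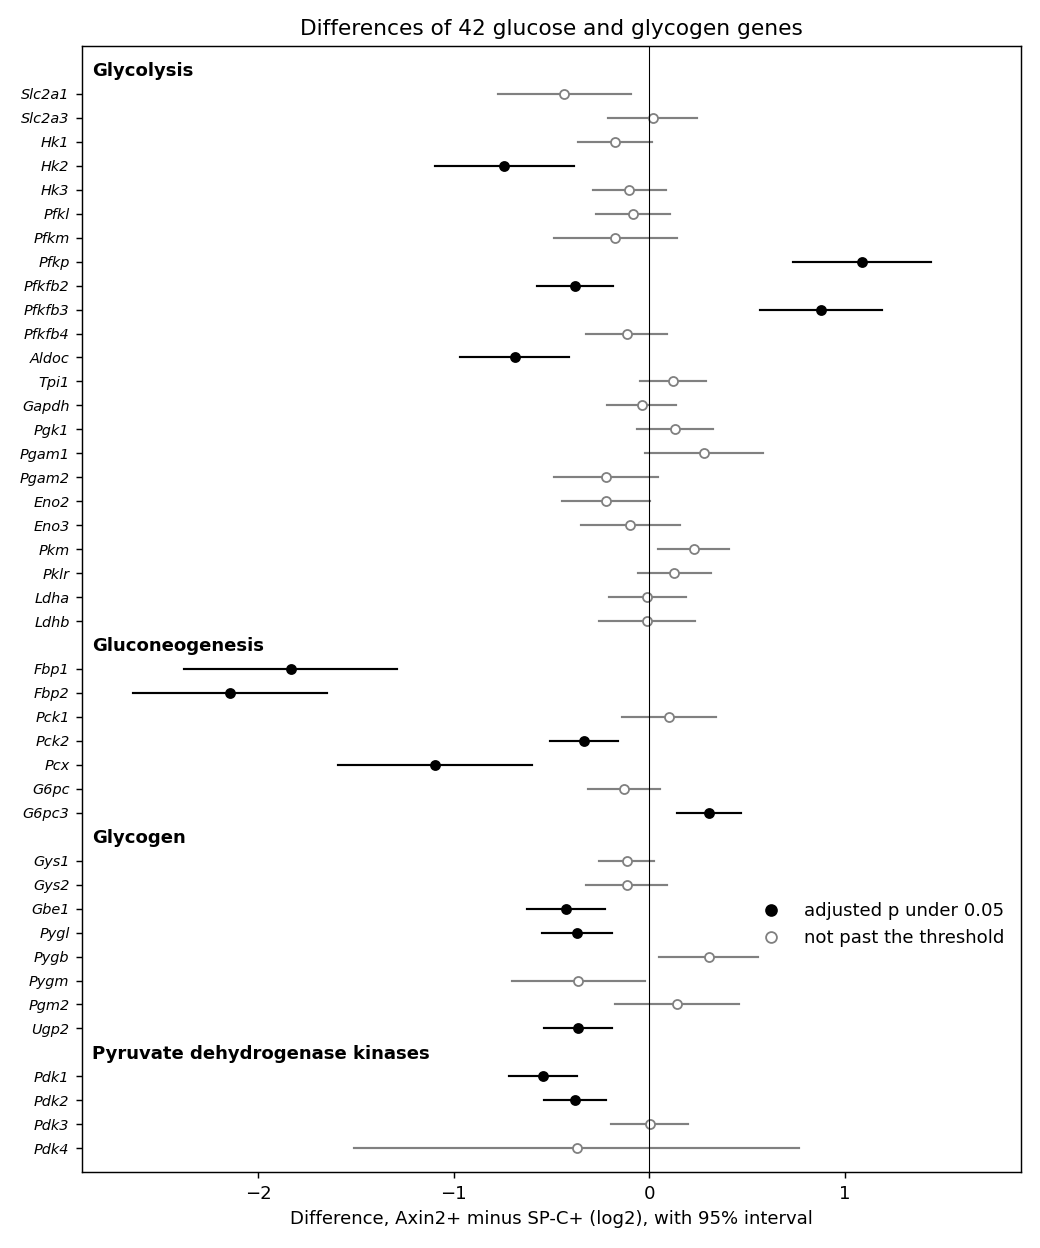
Differences of the 42 measured members by pathway, as log2 level in Axin2+ less that in SP-C+ (x axis), with 95% intervals from limma (5 arrays per group). Filled points passed the adjusted threshold. The fructose bisphosphatases lie farthest to the left at -2.14 and -1.83, Pfkp and Pfkfb3 farthest to the right at 1.09 and 0.88, and most enzymes below the aldolase step lie near 0.

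Markers of other cell types differed between the groups in the same arrays. All 20 markers of type 1 alveolar cells (AEC1s) were higher in Axin2+ arrays, with a mean level of 11.33 to 11.71 on the log2 scale in Axin2+ and 9.10 to 9.63 in SP-C+ arrays. Of 16 multiciliated cell markers 14 were higher and 1 lower, at 7.91 to 8.23 in Axin2+ and 5.73 to 5.92 in SP-C+ arrays. Of 11 club cell markers 7 were higher and 0 lower, at 8.79 to 9.18 in Axin2+ and 7.68 to 8.07 in SP-C+ arrays. Of 16 AEC2 markers 0 were higher and 3 lower, at 12.81 to 12.93 in Axin2+ and 13.04 to 13.10 in SP-C+ arrays. RNA of AEC2 genes was thus abundant in both groups, but bulk arrays do not show which cells carried it. Sftpc, at means of 14.11 in Axin2+ and 14.02 in SP-C+ arrays, lay near the highest value on the arrays (14.16). Of 19 cell cycle genes 14 were higher, at 7.89 to 8.90 in Axin2+ and 7.03 to 8.05 in SP-C+ arrays. The part of these cell types in the differences below was not tested. In such sorted bulk samples fewer cells of a type and less RNA per cell cannot be told apart. Arrays correlated at 0.993 to 0.995 within Axin2+, 0.987 to 0.993 within SP-C+ and 0.973 to 0.983 between the groups.

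Glucose enters cells through facilitative transporters and is trapped by hexokinase. Slc2a1, the widespread glucose transporter GLUT1, measured 10.12, 10.24, 10.39, 10.50 and 10.61 in Axin2+ arrays and 11.29, 10.93, 10.89, 10.47 and 10.44 in SP-C+ arrays. The groups overlapped through SP-C+ replicates 4 and 5, and the difference of -0.43 ± 0.16 SE did not pass (adjusted p = 0.0790, limma). Without SP-C+ replicate 4 or SP-C+ replicate 5 it was -0.52 and passed (adjusted p = 0.0426 and 0.0349), as it did with the arrays centred on their medians (-0.53, adjusted p = 0.0267). It also passed without both of these SP-C+ replicates. Over the 10 fits without 1 array the difference ran from -0.52 to -0.31 (adjusted p up to 0.171). SP-C+ replicates 4 and 5 averaged 10.45, near the Axin2+ mean of 10.37. A second, dimmer probe set gave -0.17 and did not pass over all probe sets (adjusted p = 0.324). The average over probe sets was -0.30 and did not pass either (adjusted p = 0.0682). Slc2a3, the transporter GLUT3, lay below the array's median gene on every array and was at 0.02 ± 0.11.

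Hk2, the hexokinase isoform induced by insulin, measured 7.33, 7.48, 7.59, 7.73 and 7.76 in Axin2+ arrays and 8.65, 8.47, 8.65, 7.81 and 8.01 in SP-C+ arrays. Every Axin2+ array was below every SP-C+ array, narrowly so for SP-C+ replicate 4. The fall of 0.74 on the log2 scale (SE 0.16, 1.67-fold) passed (adjusted p = 0.00693, limma), but without SP-C+ replicates 1, 2 and 3 it was -0.33 and did not (adjusted p = 0.143). Hk1, the housekeeping hexokinase, was at -0.17 ± 0.09 and Hk3 at -0.10 ± 0.09, and neither passed, although Hk1 did with centred arrays (-0.27, adjusted p = 0.0410). Hk2 differed from Hk1 in its change by 0.57 (exact two-sided permutation test over samples on the within-array difference, p = 0.0238, adjusted over 27 isoform pairs p = 0.0495). That result ended without any 1 of the Axin2+ arrays and without SP-C+ replicate 3 (6 of 10 tests, adjusted p at most 0.0893).

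The largest differences in both directions lay at the fructose 6-phosphate step. Fbp2, the muscle-type fructose bisphosphatase, measured 6.73, 6.30, 6.06, 5.72 and 5.83 in Axin2+ arrays and 8.26, 8.88, 8.35, 8.29 and 7.57 in SP-C+ arrays. Fbp1, the liver-type enzyme, measured 6.78, 6.49, 5.67, 5.71 and 5.51 in Axin2+ arrays and 7.67, 8.07, 7.56, 8.45 and 7.58 in SP-C+ arrays. For both genes every Axin2+ array lay below every SP-C+ array, with the least distant Axin2+ values in replicates 1 and 2. Fbp2 fell by 2.14 on the log2 scale (SE 0.23, adjusted p = 2.30e-05, limma) and Fbp1 by 1.83 (SE 0.25, adjusted p = 2.19e-04). Both passed in every alternative fit, at -2.37 to -1.80 for Fbp2 and -2.02 to -1.69 for Fbp1. Fbp1 lay above the array's median gene (6.27 to 6.43 over arrays) on 7 of 10 arrays and Fbp2 on 6, and the arrays below it were all Axin2+. The fall of the 2 genes was not shown to differ (0.31 between them, exact permutation p = 0.214, adjusted over 27 pairs p = 0.340).

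Phosphofructokinase has liver, muscle and platelet isoforms. Pfkp, the platelet type, measured 8.42, 8.06, 8.70, 8.17 and 8.50 in Axin2+ arrays and 7.29, 7.70, 7.52, 7.03 and 6.88 in SP-C+ arrays. No array of one group reached the other, and the rise was 1.09 ± 0.16 (adjusted p = 4.59e-04, limma). Pfkl, the liver type, was at -0.08 ± 0.09 and Pfkm, the muscle type, at -0.17 ± 0.14, with groups that overlapped. The change of Pfkp was larger than that of Pfkl by 1.17 and that of Pfkm by 1.26 (exact permutation p = 0.00794 each, the smallest that 252 assignments of the arrays allow, adjusted over 27 pairs p = 0.0195). Both held in each of the 10 tests without 1 array.

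The bifunctional enzymes that make and break fructose 2,6-bisphosphate also moved apart. Pfkfb3, the isoform in which the kinase activity prevails, measured 6.93, 7.04, 7.54, 7.56 and 7.61 in Axin2+ arrays and 6.68, 6.36, 6.24, 6.48 and 6.54 in SP-C+ arrays. It was higher in every Axin2+ array, by 0.88 ± 0.14 (adjusted p = 9.24e-04, limma). Pfkfb3 lay above the array's median gene on every array but SP-C+ replicate 3. Pfkfb2, the isoform best known from heart, fell by 0.38 (SE 0.09, adjusted p = 0.0104), with 10.06 to 10.47 in Axin2+ arrays and 10.56 to 10.80 in SP-C+ arrays. Without SP-C+ replicates 1, 2 and 3 its difference was -0.42 and did not pass (adjusted p = 0.0551). Pfkfb4, a further isoform, was at -0.11 ± 0.10. Each of the 3 pairs of these isoforms changed unequally, by 1.26 for Pfkfb2 and Pfkfb3, 0.99 for Pfkfb3 and Pfkfb4 and 0.26 for Pfkfb2 and Pfkfb4 (exact permutation p = 0.00794, adjusted over 27 pairs p = 0.0195 for each).

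**Figure D2:**
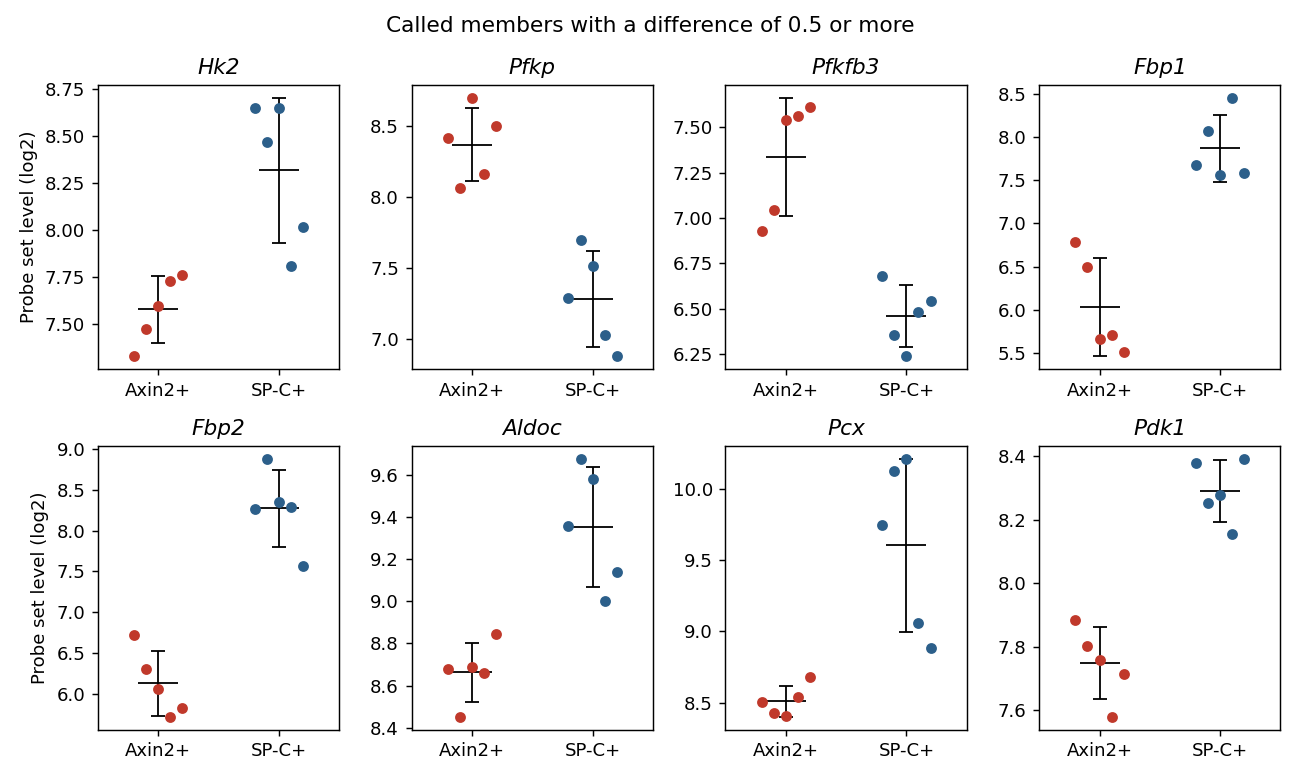
Levels of the 8 members that passed with a difference of 0.5 or more, per array on the log2 scale (y axis, not starting at 0). Points are single arrays, bars the mean and SD of 5 arrays, with Axin2+ on the left and SP-C+ on the right of each panel. Pfkp and Pfkfb3 are higher in Axin2+ arrays and the other 6 lower, and no panel has overlapping groups.

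Gluconeogenesis from pyruvate starts with carboxylation in the mitochondrion. Pcx, the biotin enzyme of that step, measured 8.50, 8.43, 8.40, 8.54 and 8.68 in Axin2+ arrays and 9.75, 10.13, 10.21, 9.06 and 8.88 in SP-C+ arrays. The Axin2+ arrays lay close together and below all SP-C+ arrays, among which replicates 4 and 5 averaged 8.97 and the others 10.03. The fall was 1.10 on the log2 scale (SE 0.23, adjusted p = 0.00492, limma). It was -1.52 without SP-C+ replicates 4 and 5 and -0.46 without replicates 1, 2 and 3, and passed in both fits (adjusted p = 7.42e-06 and 0.0193).

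Of the other gluconeogenic genes, Pck2, the mitochondrial phosphoenolpyruvate carboxykinase, fell by 0.33 (SE 0.08, adjusted p = 0.0116), with 8.32 to 8.47 in Axin2+ arrays and 8.51 to 8.87 in SP-C+ arrays. Pck1, its cytosolic counterpart, lay below the array's median gene throughout and was at 0.10 ± 0.11. The pair differed by 0.43 in its changes (exact permutation p = 0.00794, adjusted over 27 pairs p = 0.0195), but not without any 1 of the Axin2+ arrays (adjusted p at most 0.0893). G6pc3, the widely expressed glucose-6-phosphatase, rose by 0.31 ± 0.08 (adjusted p = 0.0134, limma), with 8.59 to 8.64 in Axin2+ arrays and 8.12 to 8.45 in SP-C+ arrays. It did not pass with the arrays centred on their medians (0.21, adjusted p = 0.0529) or with the replicate number as a block (0.31, adjusted p = 0.0546). G6pc, the liver glucose-6-phosphatase, was below the median gene on every array and at -0.13 ± 0.09. G6pc3 changed more than G6pc by 0.43 (exact permutation p = 0.00794, adjusted over 27 pairs p = 0.0195).

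The promoters of the 4 members with the largest called differences are shown because these genes carry the result at the fructose 6-phosphate and pyruvate carboxylase steps. Each runs from 250 bases before to 50 after a transcription start, 5′ to 3′ on the gene's strand, from RefSeq in build GRCm38.p6. Pcx has 2 starts in that table. Capitals mark matches to 6 motifs on either strand. The TATA box was searched as TATAAA. The CCAAT box was searched by those letters. For the hypoxia response element the core ACGTG was used. The E-box was searched as CACGTG, and each match to it also holds the hypoxia core on both strands. For C/EBP factors the letters were TTGCNNAA. The core of the cAMP response element was searched as TGACG.
Fbp2, chr13:62858351-62858650, minus strand: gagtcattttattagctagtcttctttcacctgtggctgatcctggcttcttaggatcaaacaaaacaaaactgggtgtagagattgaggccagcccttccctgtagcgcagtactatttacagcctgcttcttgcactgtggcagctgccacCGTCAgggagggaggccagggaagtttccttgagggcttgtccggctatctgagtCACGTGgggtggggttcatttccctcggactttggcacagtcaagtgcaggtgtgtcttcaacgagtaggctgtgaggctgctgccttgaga
Fbp1, chr13:62888233-62888532, minus strand: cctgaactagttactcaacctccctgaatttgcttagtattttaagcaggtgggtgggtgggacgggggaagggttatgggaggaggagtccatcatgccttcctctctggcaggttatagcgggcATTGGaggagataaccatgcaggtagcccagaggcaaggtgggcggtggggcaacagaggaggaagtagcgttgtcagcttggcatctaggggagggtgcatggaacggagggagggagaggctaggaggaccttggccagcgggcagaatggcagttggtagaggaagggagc
Pcx start 1, chr19:4510222-4510521, plus strand: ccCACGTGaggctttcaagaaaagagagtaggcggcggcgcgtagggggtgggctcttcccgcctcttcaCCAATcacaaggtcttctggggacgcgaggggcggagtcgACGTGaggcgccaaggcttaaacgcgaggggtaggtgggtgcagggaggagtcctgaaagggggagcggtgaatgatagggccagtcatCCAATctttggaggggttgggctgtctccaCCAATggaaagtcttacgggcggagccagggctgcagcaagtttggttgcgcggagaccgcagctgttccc
Pcx start 2, chr19:4594069-4594368, plus strand: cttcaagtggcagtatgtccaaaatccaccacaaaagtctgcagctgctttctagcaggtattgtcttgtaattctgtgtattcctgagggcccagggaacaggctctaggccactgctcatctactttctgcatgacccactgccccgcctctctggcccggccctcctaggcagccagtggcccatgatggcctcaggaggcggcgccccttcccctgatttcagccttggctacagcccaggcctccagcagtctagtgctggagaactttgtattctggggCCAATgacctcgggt
Pfkp, chr13:6648722-6649021, minus strand: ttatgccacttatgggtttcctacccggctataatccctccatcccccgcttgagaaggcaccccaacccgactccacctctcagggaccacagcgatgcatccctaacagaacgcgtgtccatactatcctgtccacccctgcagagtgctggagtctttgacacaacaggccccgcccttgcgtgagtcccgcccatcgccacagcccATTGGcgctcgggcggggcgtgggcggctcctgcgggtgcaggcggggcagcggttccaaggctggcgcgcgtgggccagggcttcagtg

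Fbp2 had a CACGTG that began at -42 from the start and a TGACG on the opposite strand at -97, while Fbp1 had only a CCAAT on the opposite strand at -124. Start 1 of Pcx held 3 CCAAT matches, a CACGTG at -248 and a further ACGTG at -140, start 2 held 1 CCAAT at 36 after the start, and Pfkp held 1 CCAAT on the opposite strand at -40. None of the 5 windows held TATAAA or TTGCNNAA. Among all 32851 promoters listed there, 37.4% held CCAAT, 19.6% ACGTG, 7.15% CACGTG, 20.8% TGACG, 13.6% TATAAA and 10.8% TTGCNNAA. Of 55 promoters of the 40 measured members in the table, 26 (47.3%) held ACGTG and 22 held CCAAT, while 14.5% held CACGTG, 23.6% TGACG, 7.27% TATAAA and 5.45% TTGCNNAA. The member promoters were also richer in G and C, with a median of 57.7% against 52.7% for all promoters. By gene, ACGTG was found for 8 of 12 members that fell, 2 of 3 that rose and 13 of 25 that did not pass, against 21.8% of all 27025 genes with a promoter. These matches are descriptions of letters and not of binding.

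Below the control step, 1 of the 12 measured glycolytic members passed. Aldoc, the brain-type aldolase, measured 8.68, 8.45, 8.69, 8.66 and 8.84 in Axin2+ arrays and 9.35, 9.68, 9.58, 9.00 and 9.14 in SP-C+ arrays. The groups did not overlap, and Aldoc fell by 0.69 on the log2 scale (SE 0.13, adjusted p = 0.00231, limma). Its difference was -0.41 without SP-C+ replicates 1, 2 and 3 and still passed (adjusted p = 0.0441).

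Of the 11 measured members from triosephosphate isomerase to lactate dehydrogenase 0 passed in limma on the probe sets used. Only 1 of the 11, Pkm, had an unadjusted p under 0.05. Their differences ran from -0.22 to 0.28, and their 95% intervals lay between -0.48 and 0.58. Gapdh, the dehydrogenase often used as a reference gene, was at -0.04 with an interval of -0.21 to 0.14. Its probe set may also see related copies, since 8 further probe sets were annotated with Gapdh and another symbol. Ldha and Ldhb, whose products make the muscle and heart subunits of lactate dehydrogenase, were both at -0.01, with intervals of -0.21 to 0.19 and -0.26 to 0.24 and signs that turned with quantile normalization. Tpi1 and Pgk1 were at 0.12 ± 0.08 and 0.13 ± 0.09. Pkm, the pyruvate kinase of most tissues, was at 0.23 ± 0.08 (adjusted p = 0.0825). It passed without SP-C+ replicate 3 (adjusted p = 0.0305), with an intensity trend and robust variances (adjusted p = 0.0493) and among genes above the 50th percentile (adjusted p = 0.0437). In the other fits without 1 array Pkm did not pass (adjusted p up to 0.186). Nor did it with centred arrays (0.14, adjusted p = 0.248), the replicate number as a block (adjusted p = 0.101) or all probe sets tested (adjusted p = 0.136). Pgam1, a phosphoglycerate mutase, was at 0.28 ± 0.14 and did not pass on the probe set used, but a second, dimmer probe set gave 0.45 ± 0.09 and passed over all probe sets (adjusted p = 0.00912). Averaged over its probe sets Pgam1 was at 0.37 and passed (adjusted p = 0.00886). Whether either probe set also sees processed copies of Pgam1 was not tested. Pgam2 and Eno3, best known from muscle, Eno2, from neurons, and Pklr, from liver, lay between -0.22 and 0.13 and did not pass. Of these Eno2 passed with centred arrays (-0.31, adjusted p = 0.0356).

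Of the 8 measured glycogen genes 3 fell. The branching enzyme gene Gbe1 fell by 0.43 (SE 0.09, adjusted p = 0.00630, limma), with 8.20 to 8.42 in Axin2+ arrays and 8.51 to 8.94 in SP-C+ arrays. Ugp2, which makes the UDP-glucose that glycogen is built from, fell by 0.36 (SE 0.08, adjusted p = 0.00647), with 9.64 to 9.90 in Axin2+ and 9.99 to 10.28 in SP-C+ arrays. Pygl, the liver glycogen phosphorylase, fell by 0.37 (SE 0.08, adjusted p = 0.00787), with 8.87 to 9.14 in Axin2+ and 9.27 to 9.58 in SP-C+ arrays. In all 3 the Axin2+ arrays lay below all SP-C+ arrays, but without SP-C+ replicates 1, 2 and 3 none passed (-0.25, -0.31 and -0.29, adjusted p = 0.112, 0.0683 and 0.101).

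Pygb, the brain glycogen phosphorylase, was higher in every Axin2+ array, at 10.22 to 10.41 against 9.56 to 10.21 in SP-C+ arrays, yet its difference of 0.30 ± 0.12 did not pass (adjusted p = 0.0966). Without SP-C+ replicate 1, the lowest SP-C+ array, it was 0.19 (adjusted p = 0.123). The changes of Pygl and Pygb differed by 0.67 (exact permutation p = 0.00794, adjusted over 27 pairs p = 0.0195), also in each test without 1 array. Pygm, the muscle phosphorylase, was at -0.36 ± 0.16 (adjusted p = 0.147). It was at 0.01 without SP-C+ replicates 1, 2 and 3, and passed without SP-C+ replicate 5 (-0.47, adjusted p = 0.0480) and with centred arrays (-0.45, adjusted p = 0.0452). It also passed without SP-C+ replicates 4 and 5. The glycogen synthase genes Gys1 and Gys2 were at -0.12 ± 0.07 and -0.11 ± 0.10 and the phosphoglucomutase gene Pgm2 at 0.14 ± 0.15, and none passed. Of these Gys1 passed with centred arrays (-0.21, adjusted p = 0.0409).

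Pyruvate dehydrogenase kinases hold pyruvate back from the mitochondrial citric acid cycle. Pdk1 measured 7.89, 7.80, 7.76, 7.58 and 7.71 in Axin2+ arrays and 8.38, 8.25, 8.28, 8.15 and 8.39 in SP-C+ arrays. The groups were well separated, and SP-C+ replicates 4 and 5 were the lowest and the highest of the SP-C+ arrays. Pdk1 fell by 0.54 (SE 0.08, adjusted p = 4.13e-04, limma), or by 0.31 when averaged with a second probe set near the bottom of the scale (adjusted p = 0.00914). Pdk2, the widely expressed isoform, fell by 0.38 (SE 0.07, adjusted p = 0.00278). Pdk3 did not pass (0.00, 95% interval -0.20 to 0.20), and the changes of Pdk1 and Pdk2 differed from its own by 0.55 and 0.38 (exact permutation p = 0.00794 each, adjusted over 27 pairs p = 0.0195).

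Pdk4, the isoform induced by fasting and glucocorticoids, varied most within the groups. It measured 8.56, 8.03, 9.02, 9.61 and 9.55 in Axin2+ arrays and 9.57, 10.63, 10.46, 8.05 and 7.90 in SP-C+ arrays. Every Axin2+ value lay within the SP-C+ range, and the difference of -0.37 ± 0.53 did not pass (adjusted p = 0.703, limma). The sign depended on the SP-C+ arrays used, at -1.27 without replicates 4 and 5 (adjusted p = 0.0310) and 0.98 without replicates 1, 2 and 3 (adjusted p = 0.138).

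**Figure D3:**
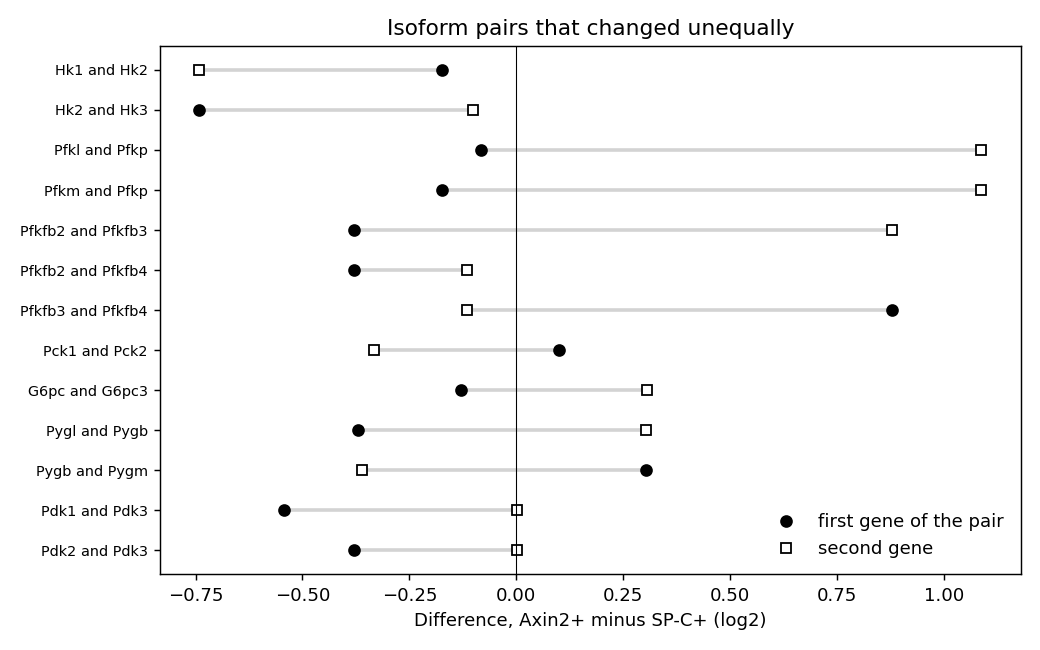
The 13 isoform pairs of 27 whose members changed unequally in the test with all arrays, with each gene's difference, as log2 level in Axin2+ less that in SP-C+, on the x axis. Hk2 with Hk1 and Hk2 with Hk3 did not pass in 6 of 10 tests without 1 array. Pck1 with Pck2 and Pygb with Pygm did not pass in 5 of 10. Filled circles are the first gene of a pair and open squares the second. The widest gaps are those of Pfkp with Pfkm (1.26) and Pfkl (1.17), and of Pfkfb2 with Pfkfb3 (1.26).

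Several members divided the SP-C+ arrays. In 11 of the 42 members SP-C+ replicates 4 and 5 were both below replicates 1, 2 and 3, and in 3 both above, against 14.8% and 14.4% of all genes. The 11 included Slc2a1, Hk2, Aldoc, Pcx, Gbe1, Pygm and Pdk4, and also Pfkp, which was higher in Axin2+ arrays. The cell cycle genes moved with this division, with mean levels of 7.80 and 8.05 in SP-C+ replicates 4 and 5 and 7.03 to 7.08 in the other SP-C+ arrays. Their part in the result was not tested. Fbp1 and Pdk1 showed no such division. No label marks these arrays as a batch.

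**Figure D4:**
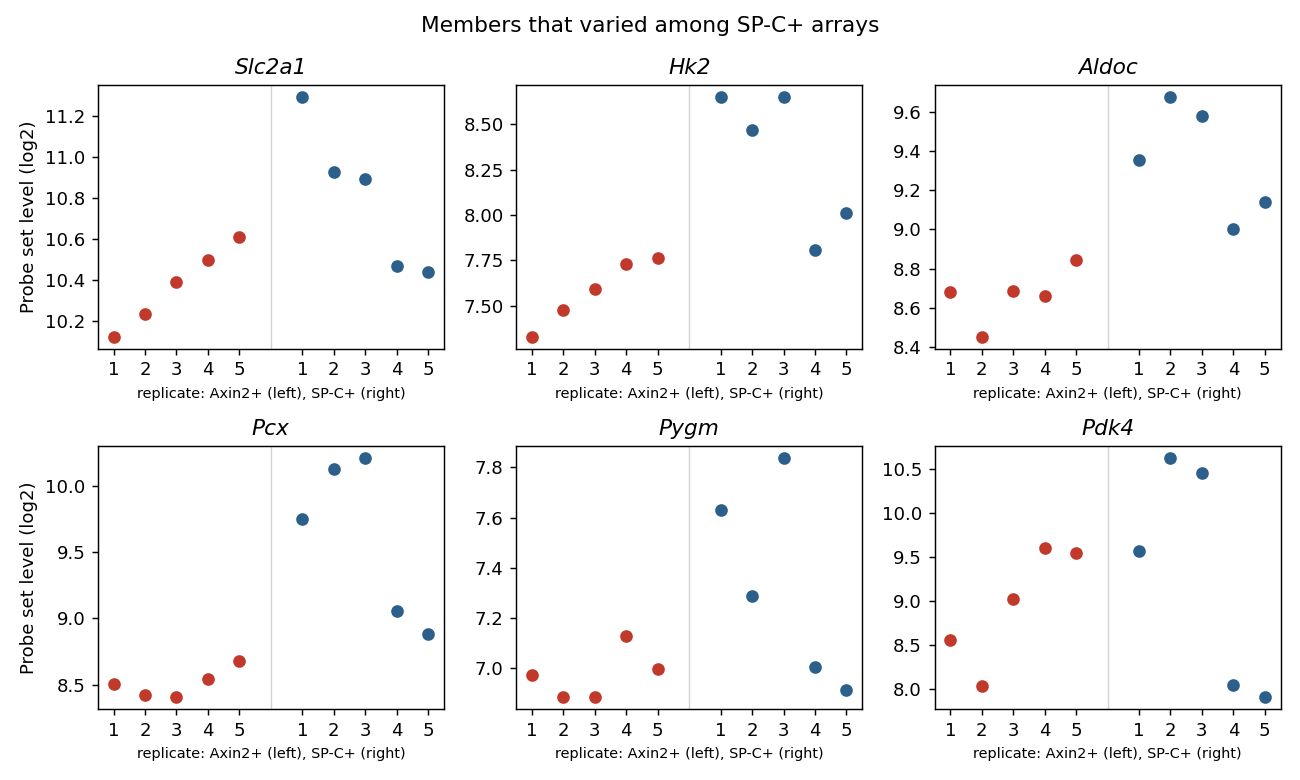
Levels of 6 members per array on the log2 scale (y axis, not starting at 0), with Axin2+ replicates on the left and SP-C+ replicates on the right of each panel. SP-C+ replicates 4 and 5 are lower than the other SP-C+ arrays in all 6. For Pdk4 replicate 4, at 8.05, lies at the bottom of the Axin2+ range of 8.03 to 9.61 and replicate 5, at 7.90, below it.

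Genes of neighbouring pathways were read from 8 further lists with 129 different measured genes, of which 5 rose, 34 fell and 90 did not pass. Over all genes 8.61% were higher and 8.95% lower, and over the brighter 11090 genes 12.5% and 15.2%. Among 18 other sugar and lactate transporters 2 rose and 2 fell, near the shares just given. Slc2a12, the glucose transporter GLUT12, measured 6.67 to 6.99 in Axin2+ arrays and 5.38 to 5.66 in SP-C+ arrays, a rise of 1.31 ± 0.09 (adjusted p = 2.48e-07, limma). Slc16a3, the lactate exporter MCT4, rose by 0.61 ± 0.07 and Slc16a1, the transporter MCT1 for lactate and pyruvate, fell by 0.65 (SE 0.11). Slc16a7, the related transporter MCT2, was at -0.34 ± 0.11, but this was lost without SP-C+ replicate 1, 4 or 5 or any Axin2+ array (adjusted p at most 0.113).

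Among 17 other enzymes of glycolysis and sugar entry 2 rose and 5 fell. Eno4, an enolase known from mouse sperm, rose by 2.41 ± 0.16 (adjusted p = 3.31e-07, limma) in the same arrays as the multiciliated cell markers given above. Mpi, mannose phosphate isomerase, rose by 0.53 ± 0.12. Hkdc1, a hexokinase-like gene, measured 8.32 to 8.65 in Axin2+ arrays and 9.32 to 9.56 in SP-C+ arrays and fell by 0.98 (SE 0.08, adjusted p = 2.49e-06). Khk, the ketohexokinase of fructose use, fell by 0.72 (SE 0.19, adjusted p = 0.0186). The 5 falls became 3 without Axin2+ replicate 1 or 2.

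Mitochondrial entry of pyruvate had 0 rises and 4 falls of 9 genes. The pentose phosphate pathway had 0 and 3 of 11, and the citric acid cycle 0 and 2 of 20. The falls of the citric acid cycle were near the share of all genes. Pdp2, a phosphatase that reactivates pyruvate dehydrogenase, fell by 0.55 (SE 0.12) and Pdhx, a structural subunit of that complex, by 0.37 (SE 0.08). Rpia and Pgd of the pentose phosphate pathway fell by 0.71 (SE 0.11) and 0.54 (SE 0.13). Suclg2, a succinate-CoA ligase subunit, fell by 0.37 (SE 0.08), and Idh1, the cytosolic isocitrate dehydrogenase, was at -0.38 ± 0.12 but lost its call without SP-C+ replicate 2, 4 or 5 or any Axin2+ array (adjusted p at most 0.0992). Of 20 other glycogen genes 0 rose and 1 fell, Phka2, a regulatory subunit of phosphorylase kinase (-0.52 ± 0.10, adjusted p = 0.00316, limma).

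Among 23 regulators of glucose metabolism 0 rose and 9 fell. Epas1, which encodes the hypoxia-inducible factor HIF-2 alpha, measured 10.24 to 10.61 in Axin2+ arrays and 11.10 to 11.60 in SP-C+ arrays and fell by 1.02 (SE 0.11, adjusted p = 1.70e-05, limma). Egln3, a prolyl hydroxylase that marks these factors for breakdown, measured 5.52, 5.74, 6.03, 5.88 and 6.68 in Axin2+ arrays and 8.48, 7.81, 7.63, 6.80 and 6.47 in SP-C+ arrays. The groups overlapped at 1 array each, Axin2+ replicate 5 and SP-C+ replicate 5, and Egln3 fell by 1.47 (SE 0.33, adjusted p = 0.00826).

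Of 11 hypoxia-induced genes outside glycolysis 1 rose and 8 fell. Ndrg1, a stress-response gene, fell by 1.10 (SE 0.20, adjusted p = 0.00218, limma) and Ddit4, an inhibitor of mTORC1, by 0.64 (SE 0.15, adjusted p = 0.0103). Vegfa, the endothelial growth factor, was the 1 gene that rose (1.08 ± 0.09, adjusted p = 3.25e-06), and it is also among the 20 AEC1 markers. The 8 falls became 5 in 7 of 10 fits without 1 array, namely Axin2+ replicate 2, 3, 4 or 5 or SP-C+ replicate 2, 3 or 5, and 3 without SP-C+ replicates 1, 2 and 3. In that last fit Egln3, Ndrg1, Ddit4, Pgd, Pdp2, Phka2 and Suclg2 did not pass (adjusted p = 0.145, 0.0759, 0.141, 0.195, 0.189, 0.0666 and 0.0531).

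**Figure D5:**
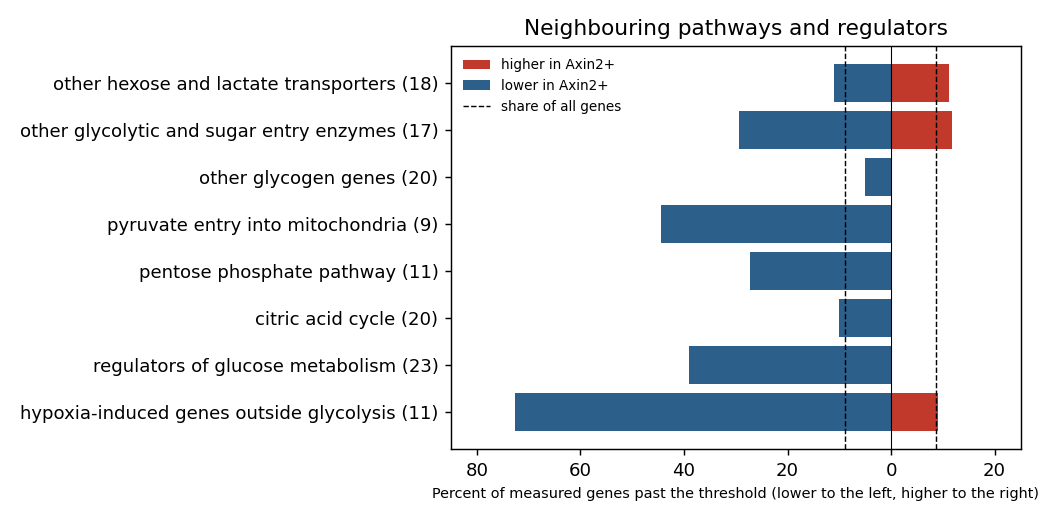
Percent of measured genes that passed the threshold in each of 8 lists of neighbouring pathways and regulators (number measured in parentheses), with genes lower in Axin2+ to the left and higher to the right. Dashed lines give the shares of all genes, 8.95% lower and 8.61% higher. Over the brighter 11090 genes the shares, not drawn, were 15.2% lower and 12.5% higher. Falls outnumber rises in 7 of the lists, and the transporters have 2 of each.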

How the data were processed

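Values for 41345 probe sets on 10 arrays were deposited on a log2 scale, already normalized. RMA, oligo and limma appear in the submitters' processing notes, with no version. Array medians of 5.89 to 5.97 and values of 1.69 to 14.16 lie in the range of RMA output, from which base 2 was taken. Per the labels' protocols, 100 ng of RNA was amplified from a poly(T) primer. The number of arrays limits the precision.

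Symbols came from the platform's annotation: 23521 probe sets had 1 symbol, 1814 several and 16010 none, and only the first were used. The groups, from sample titles, were compared with limma 3.58.1 (R 4.3.3; lmFit, eBayes, two-sided, no covariates) over 22180 genes. No label says that replicates are separate animals, so p-values measure the spread between these samples. Isoforms of 1 family were compared by exact permutation of within-array differences. On simulated data with independent normal noise and 200 of 22180 genes changed, 64.2% of changes of 0.5, 91.0% of 1 and 98.5% of 2 were recovered, and 4.52% of calls were false. In the real arrays 17.6% of genes passed and genes can vary together, so these rates need not hold there. Same-numbered replicates did not deviate together (correlations -0.23 to 0.01), so numbers were not used as pairs. Alternatives were array weights, quantile normalization, the replicate block, arrays centred on their medians, genes over the 25th or the 50th percentile only, a robust fit with an intensity trend, a Y-linked covariate, every probe set tested or averaged per gene, each array left out, SP-C+ replicates 4 and 5 or 1, 2 and 3 left out, and a threshold of 0.01.

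Members, lists and tests were chosen with earlier results of these data known. Every member is accounted for. Per-array values are given for members called with a difference of 0.5 or more and for others that the text singles out, and of each neighbouring list the 2 largest rises and falls are named. Of 143 names in these lists 129 different genes were measured. Marker lists were also read for club cells (7 higher and 0 lower of 11), neuroendocrine and basal cells (3 and 0 of 8), leukocytes (1 and 1 of 13), endothelial cells (0 and 0 of 10), mesenchymal cells (0 and 1 of 11) and erythroid cells (0 and 0 of 1).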

Additional observations from a re-analysis of the deposited data

Results flagged for a closer look

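In 8 of 84 combinations of a member and a group, 1 array lay farther from the other 4 than Dixon's 95% limit allows. Chance flags about 1 in 20 such groups. SP-C+ replicate 1 was that array in 4 of them. It was high for Slc2a3 (5.19, next 4.84) and Eno3 (9.61, next 9.15) and low for Pfkm (6.78, next 7.32) and Pygb (9.56, next 10.06). Endothelial cell markers had a mean level of 7.31 on that array and 6.15 to 6.71 on the other SP-C+ arrays, and their part in these values was not tested. The other flagged values were Hk3 in Axin2+ replicate 5 (5.46, next 5.19), Eno3 in Axin2+ replicate 3 (9.38, next 9.08), Gys1 in SP-C+ replicate 2 (9.75, next 9.80) and Pdk2 in SP-C+ replicate 4 (10.20, next 10.04). Of these 7 genes only Pdk2 was called between the groups, and leaving out SP-C+ replicate 4 or any other array did not end its call (adjusted p up to 0.00958).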

How the results depend on the processing

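All 15 called members kept their direction in every alternative run, and 9 (Aldoc, Fbp1, Fbp2, Pck2, Pcx, Pdk1, Pdk2, Pfkfb3 and Pfkp) passed 0.05 in all. Without 1 array, 12 to 14 members were lower and 3 to 4 higher, 25 to 36 neighbouring genes were lower and 5 to 6 higher, and 9 to 14 isoform pairs passed, against 12, 3, 34, 5 and 13. Leaving out SP-C+ replicates 1, 2 and 3 left 7 lower members and 19 lower neighbouring genes, and turned Pygm to 0.013 and Pdk4 to 0.98, neither past the threshold; this fit has fewer samples. Median centring gave 58 lower neighbouring genes, since the median of all genes was then -0.14 and not -0.04. At 0.01, 19 were lower. With the replicate number as a block 2 members were higher and 12 lower, G6pc3 being the call lost (0.31, adjusted p = 0.0546), and 27 neighbouring genes were lower. Median centring gave 7 falls for other glycogen genes against 1, 7 against 4 for pyruvate entry, 5 against 3 for the pentose phosphate pathway, 5 against 2 for the citric acid cycle and 14 against 9 for regulators. Regulators had 4 and pyruvate entry 1 without SP-C+ replicates 1, 2 and 3. Hypoxia-induced genes had 5 falls over all probe sets and with the Y-linked covariate, and 4 at 0.01. The other sugar enzymes had 3 falls over all probe sets and 2 at 0.01, against 5. Lists with 1 or 2 falls otherwise moved by 1 or 2 genes. The causes were not tested.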

Other observations

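Fbp2 and Fbp1 are neighbours on chromosome 13, with 0 protein-coding genes between them in the RefSeq table of GRCm38.p6. The nearest protein-coding genes on either side, which belong to no list above and were added after the tests were fixed, did not pass as lower. Gm5141, beside Fbp2, was at 5.56 ± 0.33 in Axin2+ arrays, against 5.82 ± 0.33 in SP-C+ arrays (SD, n = 5 each), a difference of -0.26 ± 0.18 SE that did not pass (adjusted p = 0.380 in limma). Aopep, an aminopeptidase gene beside Fbp1, was at 7.98 ± 0.03 in Axin2+ arrays, against 7.64 ± 0.19 in SP-C+ arrays, and was higher by 0.34 ± 0.09 SE (adjusted p = 0.0213 in limma). The Aopep call ended without Axin2+ replicate 4 or SP-C+ replicate 2 (adjusted p = 0.0511 and 0.0515) and with centred arrays, the replicate number as a block or SP-C+ replicates 1, 2 and 3 left out (adjusted p = 0.0730, 0.0557 and 0.172).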
